A study of Mus musculus with 18 samples.

Results

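The hexokinases are the enzymes that put a phosphate on glucose as it enters the cell, and 3 of their genes, Hk1, Hk2 and Hk3, were followed in macrophages grown from mouse bone marrow, through 18 RNA-seq libraries. They were taken by gene name from a table of 34745 genes, and the set was selected on measured values: the Hk1 counts were low in the monosome libraries labelled as Mkrn2 knockout (KO). The monosome values of KO against wildtype (WT) libraries are therefore a description, with no test. All 3 genes passed the filter on low counts that left 12782 genes to be tested.

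Hexokinase traps glucose as glucose 6-phosphate, which feeds glycolysis, the pentose phosphate pathway, glycogen and hexosamine synthesis. Hk1 encodes the widely expressed isoform that docks on the outer mitochondrial membrane through the VDAC channels. Hk2 encodes the inducible isoform, which also docks there and is known as a target of HIF-1 and as one of the enzymes that rise when macrophages turn to glycolysis. Hk3 encodes an isoform known mostly from myeloid cells, which lacks the mitochondrial docking sequence. A polysome is an mRNA carrying several ribosomes and a monosome is a single ribosome, so the fractions of a polysome profile sort mRNAs by ribosome load.

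The libraries fall into 6 groups of 3, from mkrn2+/+ cells (labelled wildtype) and mkrn2-/- cells (labelled knockout), each as total RNA of the lysate, polysome RNA and monosome RNA. Mkrn2 encodes an RNA-binding E3 ubiquitin ligase. Every group was grown from femoral marrow for 6 days with 20 ng/ml macrophage colony-stimulating factor and then given 100 ng/ml LPS, a bacterial cell wall component that activates macrophages, for 8 hours, so no untreated cells were compared. Strain, age, sex, the knockout allele and whether replicates were separate cultures or animals are not given in the sources used here, and p-values measure the spread between these libraries, which may be technical.

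The deposited counts summed to 11402715 to 16711558 per library of total RNA, 13006294 to 15759370 per polysome library and 9190034 to 12606314 per monosome library. Ferritin heavy chain (Fth1) alone held 15.2% to 18.5% of the monosome counts, against 1.78% to 3.29% elsewhere. A level below is in CPM, the TMM-scaled count divided by the library size in megareads. It is a share of a library and not an amount of RNA per cell, and in bulk samples fewer cells of a type and less RNA per cell cannot be told apart. Mkrn2 RNA was still counted in every KO-labelled library, at 57.1 ± 3.45 CPM (SD, n = 3) in KO total RNA against 64.3 ± 3.98 in WT, at 85.6 ± 5.22 against 95.1 ± 5.40 in polysome RNA and at 68.8 ± 5.85 against 89.2 ± 3.36 in monosome RNA. None of these passed the test (edgeR quasi-likelihood test, adjusted p = 0.855, 0.79 and 0.086), and a count per gene does not show which exons remain, so the libraries are called KO-labelled and WT-labelled. All 8 macrophage markers were detected in every group, with a summed level of 6572 to 10780 CPM. The 8 stromal markers were all detected. In total RNA they summed to 270 to 346 CPM in WT and 354 to 393 in KO-labelled libraries, in polysome RNA to 138 to 178 and 189 to 219, and in monosome RNA to 286 to 335 and 354 to 392. Their part in the differences between labels below was not tested. Neutrophils are rich in Hk3. The 9 neutrophil markers summed to 4.50 to 15.2 CPM, with 3 to 5 of them at 0 in a group, and Ly6g and Retnlg at 0 in all groups. In monosome RNA this sum was 7.71 to 11.5 CPM in WT and 13.6 to 15.2 in KO-labelled libraries, and its part in the results was not tested. In red cells Hk1 is the main hexokinase. The 8 erythroid markers summed to at most 0.328 CPM, with Hba-a1, Hba-a2 and Hbb-bt at 0 in all groups. Markers of B cells, T cells and megakaryocytes, 5 each, summed to 3.16 to 9.15, 8.55 to 26.2 and 10.2 to 25.7 CPM.

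In the coordinates of the deposited table, which match GENCODE M21 on GRCm38 for all 3 genes, Hk1 (ENSMUSG00000037012) lies on chr10:62268855-62379908, Hk2 (ENSMUSG00000000628) on chr6:82725025-82774454 and Hk3 (ENSMUSG00000025877) on chr13:55005985-55021385, each on the minus strand. GENCODE lists 20 transcripts of Hk1, of which 18 are coding from 10 start positions, 4 of Hk2 and 8 of Hk3. A count per gene therefore pools several Hk1 promoters. RefSeq (GRCm38.p6) gives 2 Hk1 starts. The windows from 250 bases before to 50 after each start, on the minus strand, are chr10:62379859-62380158 and chr10:62340372-62340671 for Hk1, chr6:82774405-82774704 for Hk2 and chr13:55021336-55021635 for Hk3. They are shown to describe the promoters of the 3 genes, and a link to the RNA levels was not tested. Capitals mark ACGTG, the core of a hypoxia response element, GGGCGG, a GC box, and GGAAGT, an ETS core, on either strand.
Hk1_start1: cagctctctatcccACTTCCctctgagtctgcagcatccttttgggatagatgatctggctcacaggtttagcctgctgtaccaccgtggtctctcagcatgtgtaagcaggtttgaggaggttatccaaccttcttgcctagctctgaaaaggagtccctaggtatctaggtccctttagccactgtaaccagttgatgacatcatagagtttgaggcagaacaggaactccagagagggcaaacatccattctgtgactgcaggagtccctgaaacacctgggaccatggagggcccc
Hk1_start2: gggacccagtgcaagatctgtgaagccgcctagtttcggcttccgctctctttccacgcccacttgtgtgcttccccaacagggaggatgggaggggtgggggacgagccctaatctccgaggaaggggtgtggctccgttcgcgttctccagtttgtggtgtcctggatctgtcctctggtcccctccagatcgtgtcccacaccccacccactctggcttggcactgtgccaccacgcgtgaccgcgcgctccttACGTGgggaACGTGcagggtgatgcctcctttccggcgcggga
Hk2_start1: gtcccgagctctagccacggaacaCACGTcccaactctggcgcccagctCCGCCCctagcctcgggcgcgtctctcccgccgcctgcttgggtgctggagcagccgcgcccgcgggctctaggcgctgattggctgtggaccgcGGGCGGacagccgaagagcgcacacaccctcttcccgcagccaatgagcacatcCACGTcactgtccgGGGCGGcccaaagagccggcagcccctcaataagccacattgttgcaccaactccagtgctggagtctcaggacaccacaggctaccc
Hk3_start1: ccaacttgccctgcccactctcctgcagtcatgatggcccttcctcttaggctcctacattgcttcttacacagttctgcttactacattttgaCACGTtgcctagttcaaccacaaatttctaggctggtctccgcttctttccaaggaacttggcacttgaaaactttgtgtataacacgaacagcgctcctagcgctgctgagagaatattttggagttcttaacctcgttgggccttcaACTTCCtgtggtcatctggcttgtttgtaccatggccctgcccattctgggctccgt

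The Hk2 window held 2 ACGTG and 3 GGGCGG matches, and had 67.3% GC and 25 CG pairs. The upstream Hk1 window had 51.3% GC, 1 CG pair and 1 GGAAGT match, while the downstream one had 63.3% GC, 20 CG pairs and 2 ACGTG matches just after the start. The Hk3 window had 49.0% GC, 7 CG pairs, 1 ACGTG match and 1 GGAAGT match. The median of all 32851 RefSeq windows of this length was 52.7% GC and 7 CG pairs. ACGTG was in 19.6% of them, GGGCGG in 35.7% and GGAAGT in 23.8%. CACGTG, the E-box bound by MYC and its partners, was in 7.15% and in none of the 4 windows. ACGTG overlaps CACGTG by its letters. These matches describe the windows and say nothing of factor binding here.

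Hk3 was the most abundant of the 3 mRNAs per length in every group. The authors' deposited FPKM divide the counts by a fixed length, 12382 bases for Hk1, 6858 for Hk2 and 6105 for Hk3. On that scale Hk3 made up 84.2% ± 1.44 (SD, n = 3) of the summed FPKM of the 3 genes in WT total RNA and 85.2% ± 0.514 in KO total RNA. Hk2 made up 9.40% ± 1.22 and 9.25% ± 0.575, and Hk1 6.45% ± 0.232 and 5.60% ± 0.0653. The order of Hk1 and Hk2 depended on the length used. With the longest CCDS transcript in place of the FPKM length (4278, 5513 and 3219 bases), the ratio of Hk1 to Hk2 in WT total RNA was 1.61 ± 0.155 in place of 0.692 ± 0.0668, while Hk3 still held 84.0% ± 1.19. Hkdc1, a further gene of the hexokinase family, had 2 counts in all 18 libraries, too few to be tested.

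In Hk1, the levels fell in the order WT total, KO total, WT polysome, KO polysome, WT monosome and KO monosome. The WT total RNA libraries had 128.78, 141.09 and 131.1 CPM and the KO-labelled ones 123.66, 109.32 and 113.38. The polysome libraries had 108.7, 107.36 and 109.3 CPM with the WT label and 94.0, 87.4 and 91.68 with the KO label. On the TMM scale no library of a group overlapped the next group in this order, which is that of the gene's own means. How many other genes separate in this way was not counted. The last step rests on the KO monosome values by which the set was chosen. The lowest KO total value (109.32) and the highest WT polysome value (109.3) nearly met. In the deposited FPKM these groups overlapped, with 11.1 to 12.5 in KO total and 10.9 to 11.5 in WT polysome RNA. The monosome libraries had 84.0, 85.25 and 85.36 CPM in WT and 12.82, 10.68 and 12.42 in KO. The 3 KO-labelled monosome libraries thus stood far below all 15 others.

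**Figure D1:**
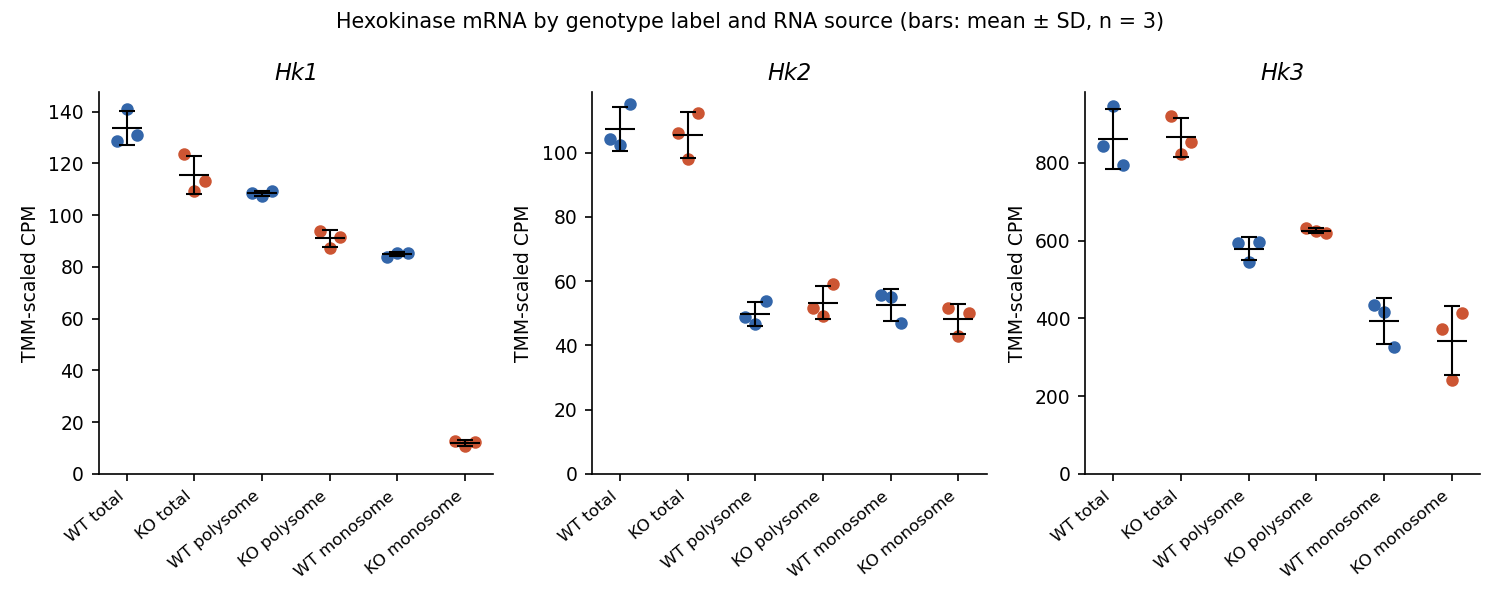
TMM-scaled CPM (vertical axes, linear from 0) of Hk1, Hk2 and Hk3 in each of the 18 libraries, by genotype label and RNA source (horizontal axes); points are libraries, bars the mean ± SD of 3. Hk1 in KO monosome RNA, at 10.68 to 12.82 CPM, sits below every other group, while Hk2 and Hk3 monosome values overlap between labels.

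Hk1 was lower in KO-labelled than in WT-labelled libraries in total RNA and in polysome RNA, but neither difference passed the test across all genes. Its level in total RNA was 134 ± 6.54 CPM in WT and 115 ± 7.39 in KO, a log2 difference of -0.21 ± 0.07 (SE; fold 0.864, 95% interval 0.778 to 0.959; unadjusted p = 0.00899, adjusted p = 0.586, edgeR quasi-likelihood test). In polysome RNA it was 108 ± 0.991 CPM in WT and 91.0 ± 3.35 in KO, a log2 difference of -0.25 ± 0.07 (fold 0.839, 0.756 to 0.932; unadjusted p = 0.00271, adjusted p = 0.358). DESeq2 placed the polysome difference just past the threshold, with an adjusted p of 0.0497, where the adjusted p over all alternatives was 0.0497 to 0.793. The labels did not overlap in either source, but among the 9554 genes that averaged 50 or more counts this held for 13.9% in total RNA and for 15.9% in polysome RNA.

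For the hexokinases as a group, 0 of 3 passed the edgeR test in total RNA and 0 of 3 in polysome RNA, and at an unadjusted p under 0.05 the count was 1 in each, Hk1. DESeq2 called 0 in total RNA and 1 in polysome RNA, and limma voom called 0 in both. Over all tested genes 0.0156% passed in total RNA and 0.0156% in polysome RNA, 2 genes each, and the members' count was at this background.

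The monosome difference in Hk1 was of another size. Raw counts were 512, 647 and 597 in the WT libraries and 97, 82 and 97 in the KO-labelled libraries, or 84.9 ± 0.758 against 11.97 ± 1.14 CPM. The fitted log2 difference was -2.82 ± 0.08 (SE), so that the KO level was 0.141 of the WT level (95% interval 0.125 to 0.159), and it was -2.87 to -2.75 with any 1 of the 6 libraries left out. Among those 9554 genes Hk1 was the 11th lowest by this difference and the 14th by its size. Over all 12782 genes 0.25% passed the test in this contrast, 16 higher and 16 lower. These values were the reason for the choice of the gene and support nothing further.

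In Hk2 and Hk3 the monosome libraries overlapped between labels. Hk2 had 55.78, 54.94 and 46.9 CPM in WT monosome RNA and 51.53, 42.86 and 50.2 in KO, with a fitted log2 difference of -0.12 ± 0.10. Hk3 had 435.56, 416.22 and 325.72 CPM in WT and 372.32, 242.3 and 413.89 in KO, with a difference of -0.20 ± 0.15 that was 0.0049 without the lowest KO library. In monosome RNA the Hk1 share of the family and its ratio to Hk2 restate the Hk1 counts by which the set was chosen. Hk1 held 8.81% ± 1.29 of the summed FPKM in WT and 1.55% ± 0.268 in KO monosome RNA. The FPKM ratio of Hk1 to Hk2 was 0.901 ± 0.0940 in WT and 0.138 ± 0.000510 in KO monosome RNA. Within a library this ratio is free of the scaling between libraries. It was 0.692 ± 0.0668 and 0.607 ± 0.0434 in total RNA, and 1.21 ± 0.0795 and 0.951 ± 0.0798 in polysome RNA, so that the labels were closer there.

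**Figure D2:**
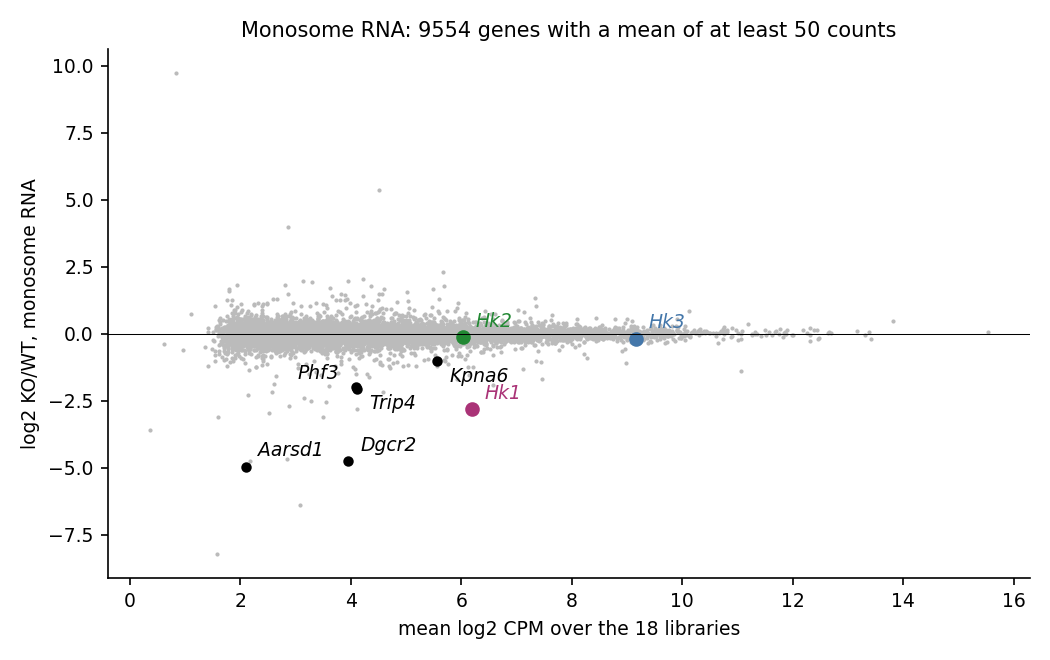
Fitted log2 KO/WT in monosome RNA (vertical axis) against mean log2 CPM over the 18 libraries (horizontal axis) for the 9554 genes that averaged 50 or more counts (grey); the hexokinases and the 5 genes most like Hk1 are marked. Hk1 lies at -2.82, away from the band that holds Hk2 and Hk3.

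The 5 genes whose log2 CPM followed Hk1 most closely over the 18 libraries, among 9553 others, were Aarsd1 (Pearson r = 0.989), Phf3 (0.978), Trip4 (0.963), Dgcr2 (0.949) and Kpna6 (0.928). These r are descriptions, and the 18 points share their libraries and 6 groups. Aarsd1 encodes an alanyl-tRNA editing protein. It had 37, 40 and 40 counts in WT monosome RNA and 2, 1 and 1 in KO. Dgcr2, which encodes a membrane receptor-like protein, had 88, 144 and 138 against 0, 0 and 15. Trip4, a transcription coactivator subunit, had 164, 108 and 151 against 39, 38 and 39. Phf3, a regulator of RNA polymerase II, had 129, 136 and 110 against 40, 36 and 29. Kpna6, a nuclear import receptor, had 226, 291 and 230 against 125, 111 and 171. In each of these 5 genes the KO-labelled monosome counts all lay below the WT monosome counts, which the choice of genes that follow Hk1 over these same libraries favours. The monosome labels stood apart in 12.9% of the 9554 genes. Hk2 was most like Pdia4 (r = 0.983) and Tns3 (0.981), and Hk3 was most like 1700022I11Rik (0.981) and Nup93 (0.980). Between the hexokinases r was 0.506 for Hk1 and Hk2, 0.744 for Hk1 and Hk3, and 0.808 for Hk2 and Hk3. The genes named before were picked for the highest r, so the 2 sets of r cannot be compared. The r that involve Hk1 include the KO monosome values by which the set was chosen.

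The counting may not have used strand, which is not stated in the sources used here, so reads of a gene and an antisense neighbour cannot be told apart. Hk1os, an antisense gene on the plus strand at chr10:62340256-62363367, overlaps Hk1 over 23112 bases, of which 157 are exonic in both, and it covers the downstream promoter window shown above. It had 13, 15 and 11 counts in WT monosome RNA and 13, 18 and 21 in KO, and 5 to 15 counts in every total and polysome library. The nearest other genes that averaged 10 or more counts, Gm5424 and Supv3l1, had 672 and 85 summed counts in WT and 761 and 88 in KO monosome RNA. The antisense Gm17034 lies within Hk2 without exonic overlap and had at most 10 counts in a library. Unc5a overlaps the end of Hk3 by 34 exonic bases and had 6 to 62 counts.

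Hk2 was the hexokinase with the largest drop from total to polysome RNA. Its total RNA level was 104.37, 102.46 and 115.28 CPM in WT and 106.28, 98.11 and 112.26 in KO-labelled libraries, with overlapping labels. In polysome RNA it was 48.78, 46.54 and 53.88 CPM in WT and 51.52, 49.28 and 59.02 in KO, again overlapping. Every polysome and monosome library lay between 42.86 and 59.02 CPM, and every total RNA library above 98 CPM, so that on the TMM scale the only gap in Hk2 was between total RNA and the fractions. Without scaling, Hk2 was also higher in polysome than in monosome RNA, by 0.93 on the log2 scale in WT and 1.16 in KO. KO and WT differed by -0.02 ± 0.10 on the log2 scale in total RNA (fold 0.983, 95% interval 0.850 to 1.14) and by 0.10 ± 0.10 in polysome RNA (fold 1.07, 0.925 to 1.24), with adjusted p = 0.9998 and 0.957 by edgeR.

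Hk3 had total RNA levels of 842.86, 946.89 and 795.56 CPM in WT and 920.8, 822.72 and 854.28 in KO-labelled libraries. Its polysome levels were 594.84, 545.77 and 596.7 CPM in WT and 632.56, 625.75 and 618.54 in KO. The labels overlapped in total RNA, while every KO polysome library was above every WT one, as KO and WT stood apart in 15.9% of genes. The log2 difference was 0.01 ± 0.15 in total RNA (fold 1.005, 95% interval 0.808 to 1.25) and 0.11 ± 0.15 in polysome RNA (fold 1.08, 0.868 to 1.34), with adjusted p = 0.9998 and 0.987 by edgeR. The sign in total RNA turned without scaling or with limma voom, where it was -0.00041 and -0.012.

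All 3 hexokinase mRNAs were lower in polysome than in total RNA under both labels, where 33% and 31.9% of all tested genes passed in WT and KO. The genes that were lower made up 16.5% and 15.8% of all tested genes. The polysome level of Hk2 was 0.463 of its total RNA level in WT (log2 -1.11 ± 0.10, adjusted p = 4.23e-06) and 0.505 in KO (-0.99 ± 0.10, 1.35e-05; edgeR). Hk3 was at 0.672 in WT (log2 -0.57 ± 0.15, adjusted p = 0.00781) and 0.722 in KO (-0.47 ± 0.15, 0.0249; edgeR). Hk1 was at 0.811 in WT (log2 -0.30 ± 0.07, adjusted p = 0.00411) and 0.789 in KO (-0.34 ± 0.07, 0.00184; edgeR). The Hk3 call in KO was lost when any of 5 of the 6 libraries was left out, with an adjusted p of up to 0.0948, and held without KO total replicate 2. In the other 5 calls no left-out library ended the call. The size of the drop did not differ detectably between labels. The difference of the log2 ratios, KO minus WT, was -0.04 ± 0.10 for Hk1 (95% interval -0.25 to 0.17), 0.12 ± 0.14 for Hk2 (-0.17 to 0.42) and 0.10 ± 0.21 for Hk3 (-0.34 to 0.55), and 0 of 3 passed by edgeR, DESeq2 or voom, with 0 at an unadjusted p under 0.05. Over all genes 0% passed by edgeR, with 229 genes at an unadjusted p under 0.05, 3 called by DESeq2 and 1 by voom.

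**Figure D3:**
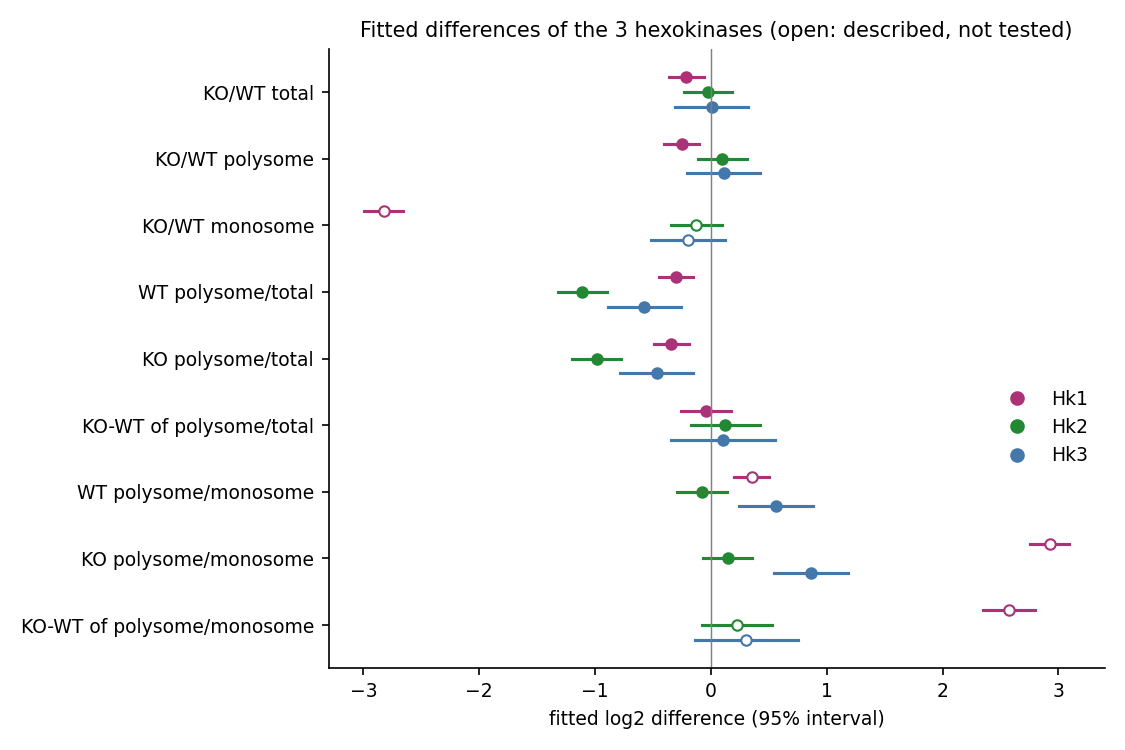
Fitted log2 differences (horizontal axis) of the 3 hexokinases in 9 comparisons (vertical axis), with 95% intervals; filled points were tested and open points are descriptions that rest on the monosome values by which Hk1 was chosen. All 6 polysome/total values lie below 0, with Hk2 lowest at -1.11 and -0.99.

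The drop was unequal among the 3 mRNAs. The FPKM ratio of Hk1 to Hk2 was 0.559 to 0.763 in the 6 total RNA libraries and 0.860 to 1.28 in the 6 polysome libraries, without overlap, a 1.66-fold higher mean (log2 0.73; exact permutation test, two-sided, p = 0.00216, adjusted over 3 ratios 0.00325). The ratio of Hk3 to Hk2 was 7.75 to 10.4 in total RNA and 11.8 to 14.3 in polysome RNA, also without overlap, 1.44-fold higher (log2 0.53; exact permutation test, adjusted p = 0.00325). In both ratios all 6 polysome libraries were above all 6 total RNA libraries, which gives the lowest p that this test can reach. How many other gene pairs separate in this way was not counted. Between these sources 33% of all tested genes passed in WT and 31.9% in KO. With the labels pooled, the ratio of Hk3 to Hk1 overlapped, with 12.3 to 15.3 in total RNA against 10.3 to 14.5 in polysome RNA (log2 -0.20, exact permutation test, adjusted p = 0.0714). Within each label this ratio did not overlap and was lower in polysome RNA. In WT it was 12.3 to 13.6 in total RNA against 10.3 to 11.1 in polysome RNA. In KO it was 15.1 to 15.3 against 13.6 to 14.5. Within 1 label the exact permutation test of 3 libraries against 3 cannot go below p = 0.1, and that p was reached in all 3 ratios. These ratio tests pooled the labels and were added after the values had been seen.

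**Figure D4:**
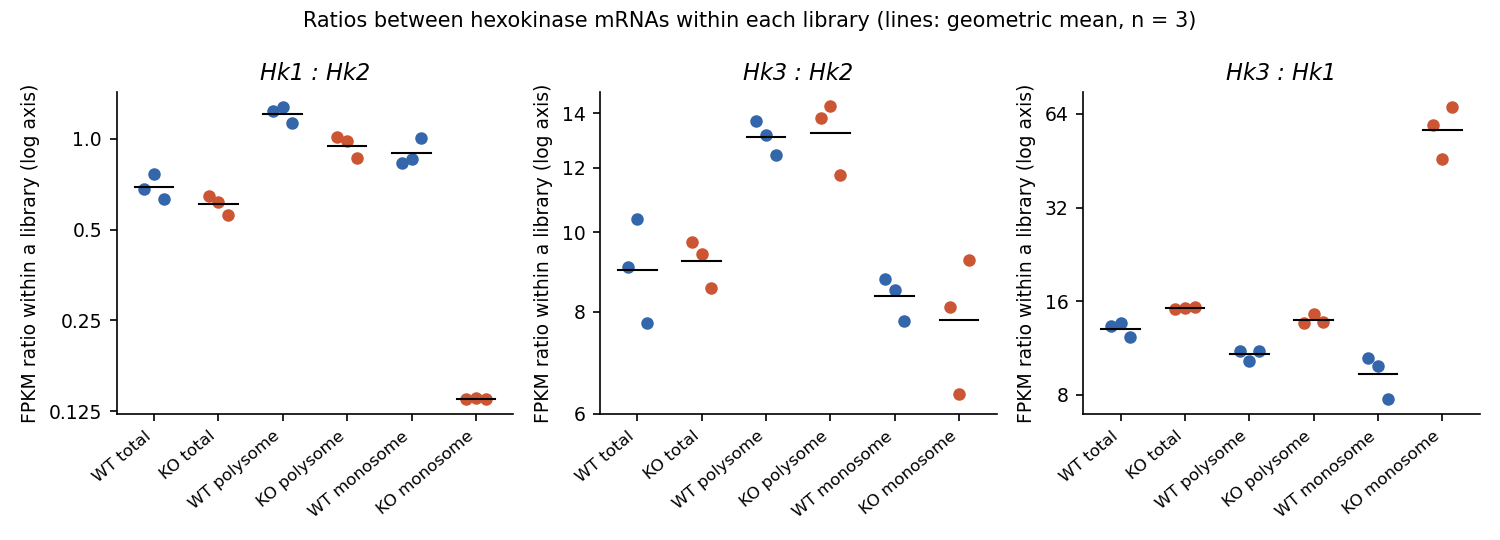
FPKM ratios between hexokinase genes within each library (log axes) by group; points are libraries and lines geometric means of 3. Both ratios to Hk2 are higher in polysome than in total RNA under each label, and the ratios that hold Hk1 leave their range in KO monosome RNA, where Hk1 to Hk2 is 0.137 to 0.138.

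Polysome and monosome RNA were compared relative to the middle of all genes: without TMM scaling the median gene moves by 1.01 in log2 under both labels. On the TMM scale Hk3 was higher in polysome RNA, 1.48-fold in WT (log2 0.56 ± 0.15, adjusted p = 0.00468) and 1.82-fold in KO (0.87 ± 0.15, 0.000129; edgeR). Of all tested genes, 55.2% passed in WT and 58.1% in KO, and the genes that were higher made up 26.2% and 28.6% of all tested genes. Hk2 did not pass, at -0.08 ± 0.10 in WT (95% interval -0.29 to 0.14, adjusted p = 0.534) and 0.14 ± 0.10 in KO (-0.07 to 0.36, adjusted p = 0.232; edgeR). The unscaled Hk2 values given above are close to the shift of the median gene. Hk1, as a description, was at 0.35 ± 0.07 in WT and 2.93 ± 0.08 in KO. The KO minus WT difference of this ratio was 2.57 ± 0.11 for Hk1, 0.22 ± 0.14 for Hk2 and 0.31 ± 0.21 for Hk3, again with no test. The comparisons share libraries, so that the Hk1 values in KO polysome/monosome and in KO/WT monosome are not separate evidence.

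The genes around the hexokinases were followed in 4 lists: glucose entry and phosphorylation (8 of 11 genes tested), downstream glycolysis (24 of 24), the branches that leave glucose 6-phosphate (19 of 19), and proteins that dock or regulate hexokinase (18 of 19). Between labels few of these 69 genes passed the test. In total RNA 0 passed by edgeR, 2 had an unadjusted p under 0.05, and DESeq2 and voom called 1 each. In polysome and in monosome RNA 1 of 69 passed, Taldo1 in both, against 0.0156% and 0.25% of all genes. List medians of log2 KO/WT were -0.04, 0.00, -0.07 and -0.01 in total RNA, -0.11, 0.03, 0.02 and 0.03 in polysome RNA, and -0.07, -0.06, 0.08 and -0.01 in monosome RNA, beside 0.01, 0.01 and -0.01 for all tested genes.

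Taldo1 encodes transaldolase of the pentose phosphate pathway. Its level was 105 ± 11.0 CPM in WT and 180 ± 24.3 in KO polysome RNA (log2 0.78 ± 0.12, adjusted p = 0.0414) and 106 ± 6.68 and 197 ± 22.6 in monosome RNA (0.89 ± 0.12, 0.0022; edgeR). The polysome call was lost without any 1 of 5 of the 6 libraries, with an adjusted p of up to 0.144, and held without KO polysome replicate 3. Both calls were lost when only the compared groups were fitted, with adjusted p of 0.168 and 0.0707. Of the entry genes the closest to a call in monosome RNA was Slc2a3, a glucose transporter, with 0, 1 and 0 counts in WT and 3, 4 and 2 in KO and an adjusted p of 0.368 by edgeR. In docking and regulation the closest was Trim35, a ubiquitin ligase known to bind pyruvate kinase M2, at -0.23 ± 0.08 (adjusted p = 0.256, edgeR). Vdac1, a mitochondrial docking site, had 178.9 ± 4.91 CPM in WT and 178.8 ± 18.02 in KO monosome RNA.

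**Figure D5:**
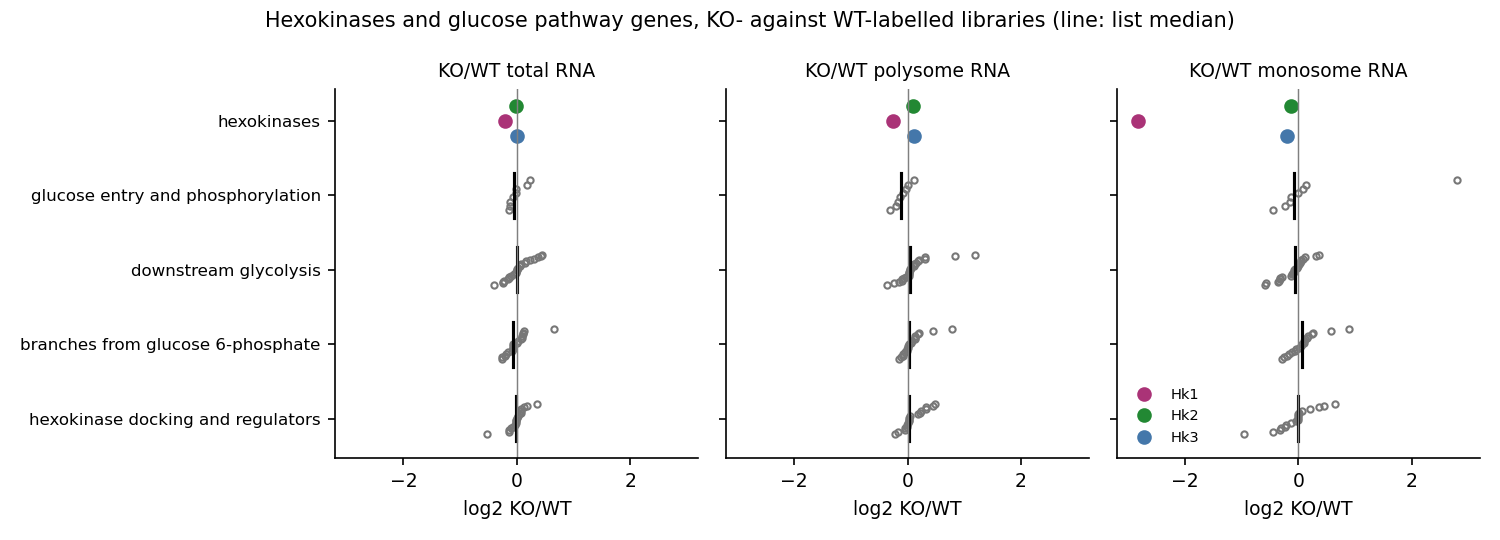
Log2 KO/WT (horizontal axes) of the hexokinases and of each tested gene in 4 glucose lists (open points, 8, 24, 19 and 18 genes; black lines are list medians) in total, polysome and monosome RNA. Hk1 at -2.82 in monosome RNA lies outside the lists' points, and the entry gene far to the right there is Slc2a3, which rests on at most 4 counts a library.

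From total to polysome RNA, 23 of the 69 list genes passed in WT, 8 higher and 15 lower, and 19 in KO, 9 higher and 10 lower, which is near the share of all genes given above. Without WT total replicate 1 the WT count was 15. Downstream glycolysis had 2 higher and 7 lower in WT, and 1 higher and 2 lower in KO. The WT count of 9 was 3 without WT total replicate 1, 4 without WT polysome replicate 2 and 5 without WT polysome replicate 3. Triose phosphate isomerase (Tpi1) rose in polysome RNA, by 0.56 ± 0.09 on the log2 scale in WT and 0.72 ± 0.09 in KO. The lactate transporter Slc16a1 was lower, at -0.64 ± 0.12 and -0.61 ± 0.12. Pyruvate kinase (Pkm) was at -0.24 ± 0.08 in KO, a call that was lost without any of 4 libraries (KO total replicates 1 and 2, KO polysome replicates 2 and 3). The branches had 1 higher and 5 lower in WT and 3 higher and 5 lower in KO. The first enzyme of the pentose phosphate pathway, G6pdx, was at -0.66 ± 0.09 and -0.52 ± 0.09, and the hexosamine enzyme Gfpt1 at -0.58 ± 0.10 and -0.59 ± 0.10. Entry genes had 2 higher and 0 lower in WT, and 2 higher and 1 lower in KO. Ketohexokinase (Khk), which phosphorylates fructose, was at 0.69 ± 0.13 and 0.74 ± 0.13, and the transporter Slc2a6 at 0.33 ± 0.09 and 0.32 ± 0.09, the latter lost without KO total replicate 3 or KO polysome replicate 1. The docking and regulator list had 3 higher and 3 lower in WT, and 3 higher and 2 lower in KO. Mtor, a kinase that promotes glycolysis, was at -0.62 ± 0.13 and -0.53 ± 0.13. Of the docking channels in WT, Vdac3 was higher, at 0.44 ± 0.09, and Vdac2 lower, at -0.42 ± 0.09. Max and Akt1 were higher in KO, at 0.30 ± 0.06 for Max and 0.29 ± 0.08 for Akt1. Where no label is named, the first value of each pair is WT and the second KO, and each value given here passed the edgeR test. Of the 69 genes 0 differed between labels in this ratio by edgeR, DESeq2 or voom, and 0 had an unadjusted p under 0.05.

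Between polysome and monosome RNA, 45 of the 69 passed in WT, 17 higher and 28 lower, and 38 in KO, 13 higher and 25 lower. Of all 12782 tested genes 55.2% passed in WT, 3347 higher and 3712 lower. In KO 58.1% passed, 3656 higher and 3769 lower. Without scaling the split of the 69 was 48 higher and 1 lower in WT and 52 and 3 in KO. Direction here thus holds only relative to the median gene. On the TMM scale G6pdx was at -1.74 ± 0.09 in WT and -1.74 ± 0.09 in KO, phosphoglycerate mutase (Pgam1) at -1.14 ± 0.07 and -1.20 ± 0.07, and Akt1 at 1.10 ± 0.08 and 1.22 ± 0.08. Akt1 was higher, and G6pdx and Pgam1 lower, in polysome RNA under both labels on that scale. Without scaling the WT call of Pgam1 was lost (-0.14, adjusted p = 0.0897, edgeR). Of the mitochondrial docking channels, Vdac3 was at -1.05 ± 0.09 in WT and -1.08 ± 0.09 in KO, and Vdac1 at -0.85 ± 0.09 in WT. Without scaling the Vdac3 calls were lost and Vdac1 turned to 0.16. The KO minus WT difference of this ratio was called in 0 of the 69 genes by edgeR, DESeq2 or voom, where 7 of 12782 genes (0.0548%) passed by edgeR. At an unadjusted p under 0.05 the count was 3 of the 69, and 678 of all genes.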

How the data were processed

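RNA from whole lysates and from polysome and monosome fractions was sequenced in 18 libraries. Per the file headers, the authors deposited 1 table of raw counts per gene and FPKM values. Tools listed in the submitters' processing notes are HISAT2 2.0.4, StringTie 1.3.0 and fastp 0.23.2, while a genome build is not given in the sources used here. The deposited FPKM equal the counts per library total and per base of 1 length a gene, an implied length that varied by at most 0.071% over 9554 genes. They were used only for levels per length. Of 34344 table IDs found in GENCODE M21, 27763 (80.8%) had the same position.

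Counts were fitted in R 4.3.3 with edgeR 4.0.16: filterByExpr over 6 groups (12782 genes), TMM scaling (factors 0.605 to 0.664 in monosome libraries, 1.24 to 1.30 elsewhere), 1 mean per group over 18 libraries, a two-sided quasi-likelihood test (prior df 3.41) and Benjamini-Hochberg adjustment over all tested genes; calls are at 0.05. SEs and 95% intervals come from that fit. The fit was also run on simulated counts with differences put into known genes. All other genes had the same mean level in every group there, so that run does not bear on scaling between fractions. Ratios between members within a library were compared by exact permutation tests. DESeq2 1.42.0 and limma voom 3.58.1 were alternatives, with other scalings, other filters, fits of the compared groups alone, a replicate block and each library left out. The 67 rows with a repeated gene name kept the name only for the row with most counts.

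The members and the lists were chosen with earlier results of these data known. Named genes are the members, Mkrn2, per list up to 3 called genes of smallest p in a comparison or else the 1 of smallest p, the 5 genes most like each member, and genes overlapping or next to a member. The Vdac1 level between labels falls outside that rule and was chosen after its values were seen. Replicates differed by more than counting noise, since chi-square over its degrees of freedom was 16.4 to 51.1, and none was counted as a repeat of another. Protein sequences are not used here.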

Additional observations from a re-analysis of the deposited data

How the results depend on the processing

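The Hk1 difference in monosome RNA was -2.87 to -2.75 under all 14 alternatives. It is the value by which the set was chosen, and refits of the same libraries add no support to it. The 2 lower Hk1 levels in total and polysome RNA kept their direction, at -0.28 to -0.17 and -0.28 to -0.22. In polysome RNA DESeq2 alone passed the threshold, at -0.26. For KO against WT in total RNA, Hk2 lay between -0.072 and 0.029 with 1 library left out, above 0 without WT replicate 3 or KO replicate 2. Hk3 lay between -0.052 and 0.080, below 0 without WT replicate 1, WT replicate 3 or KO replicate 1, and was -0.00041 without scaling, -0.012 with voom and -0.00056 with only the groups compared. In monosome RNA Hk3 lay between -0.35 and 0.0049, the latter without KO replicate 2. For KO polysome/total, Hk3 lay between -0.51 and -0.39. The KO minus WT difference of that ratio for Hk1 lay between -0.082 and 0.014, the latter without KO total replicate 1. The monosome form for Hk1 lay between 2.49 and 2.62.

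Scaling mattered most between polysome and monosome RNA. Hk1 in WT was 0.37 with DESeq2's size factors or DESeq2, 1.36 without scaling, 0.45 without a filter and 0.39 with only the groups compared, and in KO 3.94 without scaling. Hk2 turned to 0.93 without scaling and 0.013 without a filter in WT, and reached 1.16 without scaling in KO. Without scaling, Pgm1 was 0.030, Aldoa 0.13, Tpi1 0.18, Slc2a6 0.35, Adpgk 0.48 and Vdac1 0.16 in WT, and Tpi1 0.24, Aldoa 0.28, Slc2a6 0.33 and Adpgk 0.36 in KO, all turned from below 0 by a shift of the median gene of 1.01. Among 978 alternative values of single list genes, 941 kept their direction and side of the threshold, 25 lost a call, 2 gained one and 10 turned.

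List genes past the threshold in KO against WT numbered 1 with DESeq2 and 1 with voom in total RNA in place of 0, 0 with only the groups compared in polysome RNA (0 to 1 with 1 library left out) and 0 with only the groups compared in monosome RNA. In WT polysome/total they numbered 15 to 23 with 1 library left out, 15 without WT total replicate 1. Over all genes, the count past the threshold ranged from 1 to 67 in total RNA, 1 to 49 in polysome RNA and 10 to 112 in monosome RNA for KO against WT, from 0 to 4 for the KO minus WT polysome/total ratio, and from 6 to 26 for that of polysome/monosome. The cause of these changes was not tested.

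In WT libraries alone, the polysome against total difference was 0.81 for Hk1 to Hk2 and 0.54 for Hk3 to Hk2, and in KO libraries alone 0.65 and 0.52, where 3 against 3 cannot pass. That of Hk3 to Hk1 lay between -0.25 and -0.15 with 1 library left out, and passed without WT total replicate 3 (-0.24, adjusted p = 0.0433, exact permutation test) and without KO polysome replicate 2 (-0.25, 0.0476). With the CCDS length, Hk1 to Hk2 was 1.61, 1.41, 2.82, 2.21, 2.10 and 0.320 in WT and KO total, WT and KO polysome, and WT and KO monosome RNA.

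Same-numbered libraries of different groups had residual correlations of -0.087 to 0.188. The highest range was that of KO total with KO polysome RNA, 0.083 to 0.188. WT total with WT polysome RNA had 0.044 to 0.099. In no pair of groups were all 3 above 0.1, and the numbers were not taken to pair the libraries. The permutation tests of the ratios thus used no pairing. With the replicate number as a block, Hk1 was -0.21 in total RNA (adjusted p = 0.434), -0.25 in polysome RNA (adjusted p = 0.289) and -2.83 in monosome RNA by edgeR, and no hexokinase call changed. Over all genes the block gave 1, 9 and 60 calls in place of 2, 2 and 32. The Hk1 level in KO monosome RNA rests on 82 to 97 counts a library.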
